A study of Mus musculus with 3 samples.

Results

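The Nr4a genes encode a small family of orphan nuclear receptors, Nr4a1 (Nur77), Nr4a2 (Nurr1) and Nr4a3 (Nor1). Its 3 members were taken by symbol from the gene expression features of the deposited matrices, which list 32285 genes in all, and each member matched 1 feature. In GRCm38 (GENCODE) coordinates, Nr4a1 (ENSMUSG00000023034) lies on the forward strand at chr15:101254269-101274795, Nr4a2 (ENSMUSG00000026826) on the reverse strand at chr2:57106830-57124003 and Nr4a3 (ENSMUSG00000028341) on the forward strand at chr4:48045153-48086447.

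Orphan receptors of this family have no accepted natural ligand, and their ligand-binding pocket is filled by bulky side chains, so their activity is set mainly by how much of the protein a cell makes. They are immediate-early genes: signals that raise calcium, cAMP or MAP kinase activity switch on their transcription within minutes, and the mRNA is short-lived. In lymphocytes Nr4a1 is induced by the antigen receptor, which is why a GFP reporter of Nur77 is used to mark B and T cells that have received that signal. The study followed B cells with such reporter mice. In myeloid cells, Nr4a1 is required for the nonclassical (patrolling) monocyte.

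The stretches just upstream of the transcription starts are shown because they carry the same short element in every member. They come from RefSeq promoters of build GRCm38.p6, which held all 3 genes, and are written 5′ to 3′ along each gene. Capitals mark TGACG on either strand (CGTCA on the reverse), the core of the cAMP response element bound by CREB and ATF factors. For Nr4a1 (chr15:101266596-101266845) the stretch lies in an intron of the longer gene model, for Nr4a2 (chr2:57124004-57124253) it ends at the gene's first base, and for Nr4a3 (chr4:48045055-48045152) the bases that GENCODE places in an exon were left out.
Nr4a1: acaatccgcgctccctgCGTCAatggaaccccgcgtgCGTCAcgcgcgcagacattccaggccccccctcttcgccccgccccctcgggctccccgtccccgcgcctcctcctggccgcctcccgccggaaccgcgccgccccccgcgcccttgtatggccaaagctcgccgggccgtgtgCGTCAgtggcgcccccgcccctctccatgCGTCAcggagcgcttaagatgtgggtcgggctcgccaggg
Nr4a2: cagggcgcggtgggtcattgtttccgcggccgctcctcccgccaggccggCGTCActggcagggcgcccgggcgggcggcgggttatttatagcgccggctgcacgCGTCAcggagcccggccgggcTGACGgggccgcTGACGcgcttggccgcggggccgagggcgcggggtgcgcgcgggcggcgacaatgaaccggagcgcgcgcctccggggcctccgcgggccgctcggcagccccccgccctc
Nr4a3: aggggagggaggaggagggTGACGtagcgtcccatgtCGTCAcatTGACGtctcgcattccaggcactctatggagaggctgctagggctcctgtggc

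Each member held 4 copies of TGACG in the 250 bases before its RefSeq start, of which 3 are in the shorter stretch printed for Nr4a3. Of 32851 mouse promoters of that length, 17.8% held at least 1 copy and 0.137% (45 promoters) held 4 or more. The full palindrome TGACGTCA, which contains TGACG on both strands, was in none of the 3 windows and in 1.55% of all promoters. The element that Nr4a proteins themselves bind as monomers, AAAGGTCA, was also in none of the 3 (1.34% of all promoters), as was the AP-1 element TGANTCA (6.75%). The GC box GGGCGG was found 3 times for Nr4a1, 4 times for Nr4a2 and once for Nr4a3, and in 32.7% of all promoters. The windows were 74.4%, 80.0% and 63.6% G or C for Nr4a1, Nr4a2 and Nr4a3. These matches describe the sequence, and no factor's binding was measured here.

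The data are scRNA-Seq of CD45-sorted cells from C57BL/6J mouse lungs, 1 library per group. In both transplant groups a left lung of a B6 donor (CD45.2) was placed into a syngeneic B6 recipient (CD45.1) after 60 minutes at 4°C and 45 minutes at 28°C, and was taken after 2 hours or 3 days of reperfusion. The naive group was the left lung of an untreated B6 mouse, with neither ischemia nor surgery. The study lists its B6 CD45.1 mice as the congenic strain B6.SJL-Ptprca Pepcb/BoyJ. Any part of this strain in the ratios to naive was not tested. Cells of 2 mice were pooled in every library. The study sorted recipient (CD45.1) cells, so in the grafts these are cells that entered from the recipient, whereas a naive lung has no recipient and the sources used here do not give its gate. With 1 library per group there are no replicates and no test between groups, and all intervals below are 95% exact intervals for counting error only.

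After the filters, 2422 naive, 10283 2-hour and 8324 3-day cells remained, with a median of 7298.5, 878 and 5716.5 UMIs (unique molecular identifiers, counted molecules) per cell. Shared cell barcodes numbered 8 between the 2-hour and naive libraries, 23 between 2 hours and 3 days and 1 between 3 days and naive. The naive library was counted with Cell Ranger 7.1.0 and both transplant libraries with 6.0.0. In B cells, genes whose introns exceed 100 kb made up 17.8% of UMIs for the naive lung, 4.49% after 2 hours and 5.59% after 3 days. The naive library therefore stands apart, and each ratio to it is given beside the ratio of 2 hours to 3 days, whose libraries share their software. Introns of Nr4a1, Nr4a2 and Nr4a3 span 17018, 13115 and 35308 bases.

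Cells were clustered without the 3 Nr4a genes and clusters were named from marker genes, giving B-like, T-like, NK-like, neutrophil-like, monocyte-like and other lineages, for which the plain names are used below. Of the 8 B cell markers, all 8 were over 2-fold higher in each of the B cell clusters than in the other cells. Most lineages were held by different clusters in each library: B cells were mainly cluster 14 in the naive lung, cluster 3 at 2 hours and cluster 1 at 3 days. The endothelial (15), dendritic (20) and basophil or mast (21) clusters held cells of all 3 libraries, and cluster 13 held monocytes of both grafts. Levels are UMIs of a gene per 1000000 UMIs of all genes (CPM), summed over the cells of a lineage in a library. Levels are compared within a gene, while the make-up of the family sets the members beside one another as shares of UMIs. How evenly the members are captured was not measured.

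In the naive lung, each member had its own order over the 7 lineages with at least 50 cells, which leaves out the 21 dendritic cells and the 20 basophils or mast cells. Nr4a1 was highest in monocytes, at 604 CPM (569 to 641), followed by neutrophils at 426 CPM (399 to 453) and B cells at 339 CPM (320.2 to 359). It was lowest in T cells, at 55.9 CPM, 10.8-fold below monocytes, with NK cells at 89.1 CPM (80.3 to 98.5). Among neighbours in this order, only endothelial cells (154 CPM) and macrophages (136 CPM) had overlapping intervals. Nr4a1 thus stood highest in monocytes, neutrophils and B cells.

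Nr4a2 had a different order. It was highest in NK cells, at 268 CPM (253 to 284), well above monocytes (113 CPM), neutrophils (107 CPM) and endothelial cells (94.3 CPM), which overlapped one another. T cells held 58.8 CPM and B cells 36.4 CPM (30.4 to 43.3). Macrophages of the naive lung, which carried alveolar macrophage markers, were lowest at 9.80 CPM (5.98 to 15.1), from 20 UMIs in 108 cells.

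Nr4a3 was highest in neutrophils, at 348 CPM (324 to 374), then in NK cells at 162 CPM (149.6 to 174) and T cells at 116 CPM (108 to 125), each interval apart from the next in this order. The small groups left out lay near NK cells, basophils or mast cells at 164 CPM (107 to 240.3) and dendritic cells at 161 CPM. Monocytes (60.3 CPM), B cells (55.5 CPM) and macrophages (52.4 CPM) could not be told apart by their intervals. B cells and monocytes, high for Nr4a1, were therefore in the lower part of the order for Nr4a3.

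**Figure D1:**
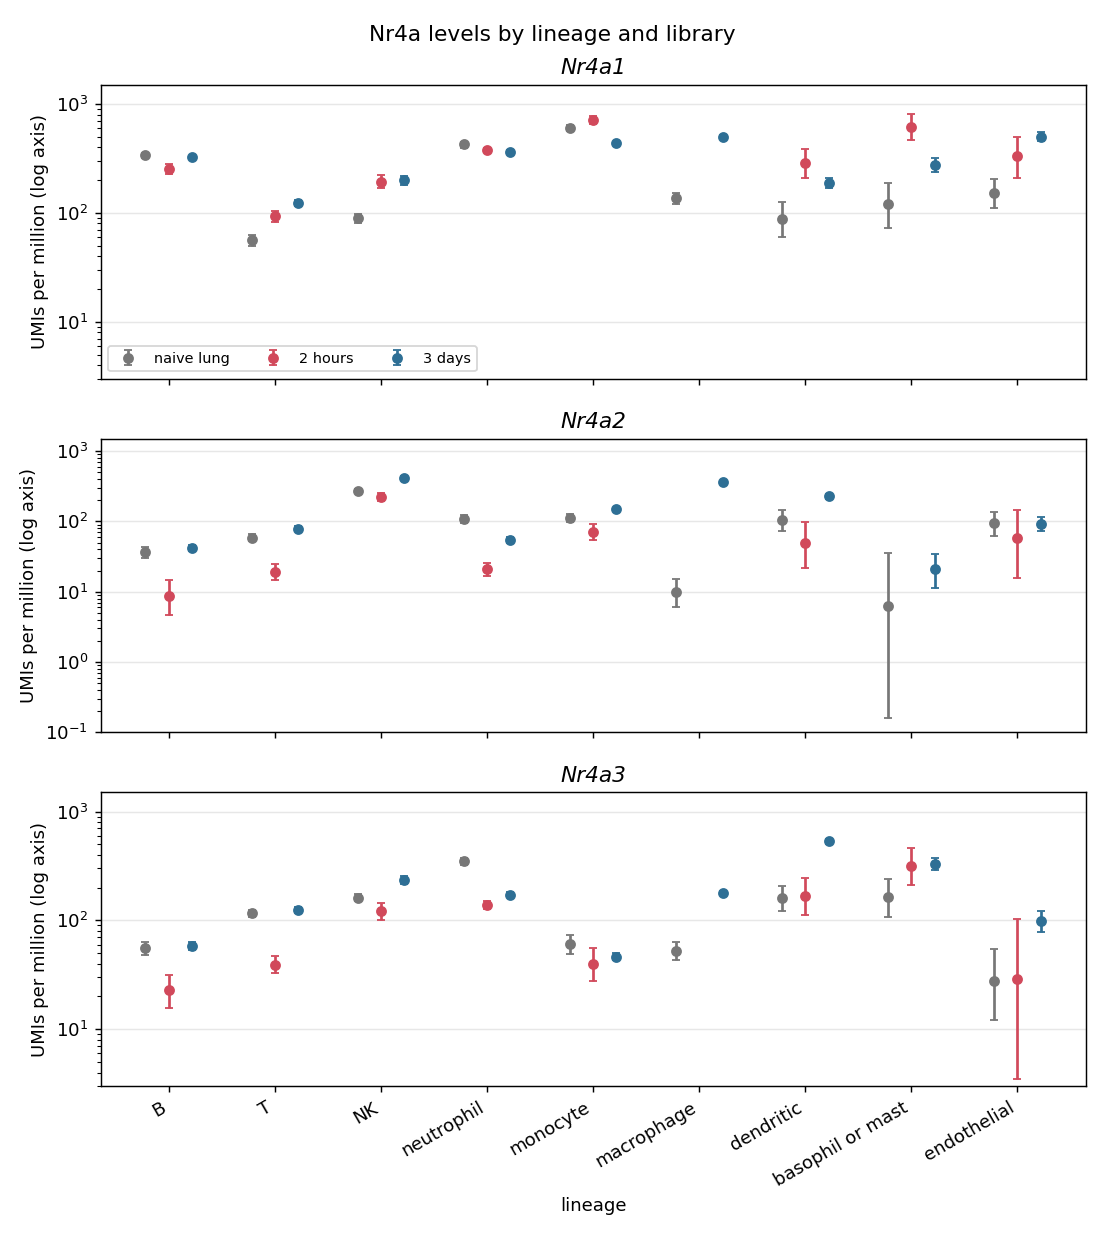
Levels of Nr4a1, Nr4a2 and Nr4a3 in CPM (log axis, with a wider range for Nr4a2) in 9 lineages of the naive lung, the 2-hour graft and the 3-day graft. Points are summed levels of 1 library each and bars are 95% Poisson intervals; groups with under 20 cells or with 0 UMIs are not drawn. In B cells the 2-hour point of Nr4a2 (8.70) lies below the naive (36.4) and 3-day (41.8) points.

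The same differences appear as the make-up of the family within a lineage. In naive B cells Nr4a1 gave 78.7% of all Nr4a UMIs, Nr4a2 8.45% and Nr4a3 12.9%. In naive NK cells Nr4a1 gave 17.2%, Nr4a2 51.7% and Nr4a3 31.1%, and in naive T cells Nr4a3 gave 50.3%. At 2 hours the share of Nr4a1 was higher than in both other libraries in all 5 main lineages: 89.0% in B cells, 61.6% in T cells, 35.9% in NK cells, 70.5% in neutrophils and 86.6% in monocytes. At 3 days it was 76.4% in B cells, 38.0% in T cells, 23.5% in NK cells, 61.9% in neutrophils and 69.4% in monocytes. Nearly all 2-hour monocytes were in cluster 13, while 766 of the 1266 at 3 days were classical cells of cluster 10. In cluster 13, Nr4a1, Nr4a2 and Nr4a3 held 594, 59 and 33 UMIs at 2 hours and 1005, 94 and 59 at 3 days. In the nonclassical cluster 17 at 3 days they held 4202, 403 and 162. The higher Nr4a1 share of monocytes at 2 hours than at 3 days was thus not seen between these clusters.

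**Figure D2:**
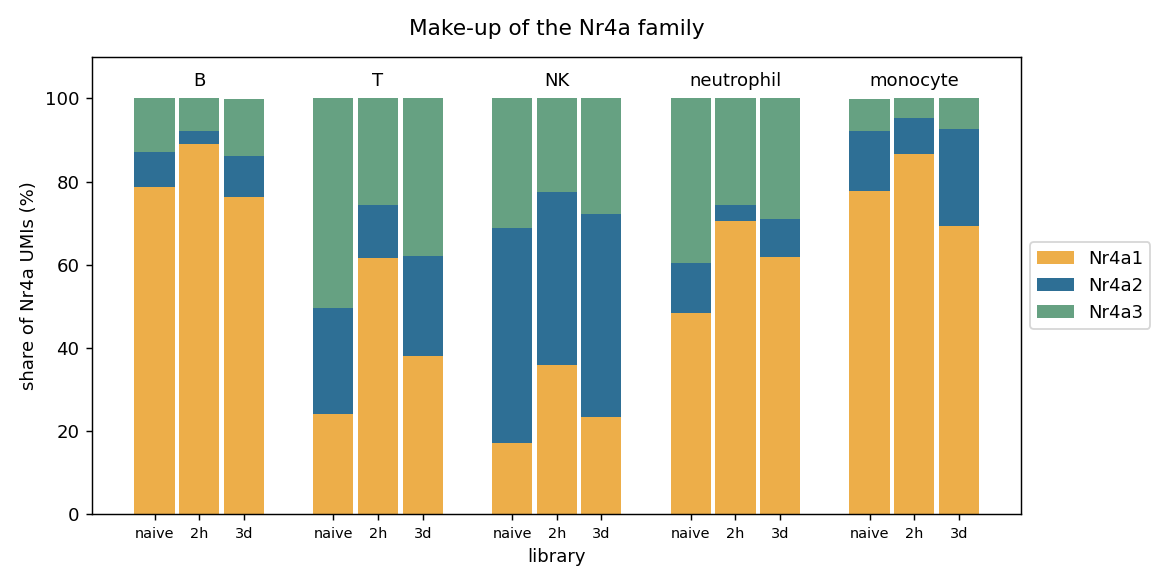
Share of all Nr4a UMIs (%) that each member gave, for B, T and NK cells, neutrophils and monocytes in each library. The Nr4a1 share at 2 hours is the tallest of the 3 bars in every lineage, for example 61.6% in T cells against 24.2% in the naive lung and 38.0% at 3 days. The kinds of monocyte differ between the libraries.

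B cells were the subject of the study, and Nr4a1 is the gene behind its Nur77 reporter. The study read that reporter as GFP protein in CD25 and CD30 positive B cells, lung against spleen, after hilar clamping with shorter reperfusion. The values here are mRNA over all B cells of transplanted and naive lungs, so they do not check that result. The library values of Nr4a1 were 339 CPM in the naive lung, 255 CPM (230.1 to 282) at 2 hours and 324 CPM (314 to 335) at 3 days, from 1192, 381 and 3470 UMIs. Nr4a2 measured 36.4, 8.70 (4.63 to 14.9) and 41.8 CPM (38.0 to 45.8), the 2-hour level resting on 13 UMIs. Nr4a3 measured 55.5, 22.8 (15.8 to 31.8) and 58.2 CPM (53.7 to 63.0), from 195, 34 and 623 UMIs. For each member the 2-hour graft was the lowest of the 3 libraries, and the 3-day graft lay close to the naive lung.

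Against the naive lung, the log2 ratio at 2 hours was -0.41 (-0.58 to -0.24) for Nr4a1, -2.07 (-3.01 to -1.24) for Nr4a2 and -1.29 (-1.86 to -0.75) for Nr4a3. Against 3 days it was -0.35 (-0.50 to -0.19), -2.26 (-3.18 to -1.47) and -1.36 (-1.90 to -0.86), so that Nr4a2 was 4.80-fold and Nr4a3 2.56-fold lower at 2 hours. The ratios of 3 days to naive were -0.06, 0.20 and 0.07, and all of their intervals include 0. In all, 2 of 3 members were over 2-fold lower at 2 hours in both comparisons, where 31.4% of the 8601 genes tested were over 2-fold lower than naive and 13.8% of 8132 were over 2-fold lower than at 3 days. The naive call was lost for Nr4a2 when cells were thinned to 500 UMIs (-0.52), and for Nr4a3 with median-of-ratios scaling (-0.95) and with unfiltered cells called one by one (-0.98).

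The ratio of Nr4a1 was that of the typical gene. The median log2 ratio over all genes tested in B cells was -0.39 against naive and -0.26 against 3 days, and 49.5% and 45.0% of genes had a lower ratio than Nr4a1. Scaled to the median of ratios, Nr4a1 stood at -0.07 and -0.08. For Nr4a2, in contrast, 0.701% of genes had a lower ratio of 2 hours to 3 days, and for Nr4a3 6.15%. Against the naive lung these shares were 12.3% and 24.5%.

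Most genes on a list of other immediate-early genes stood the other way. Of the 22 on the list, 16 were over 2-fold higher at 2 hours than in the naive lung and 14 than at 3 days, and none was over 2-fold lower, where 9.42% and 7.27% of all genes tested were over 2-fold higher. The list median was 1.62 against naive and 1.27 against 3 days. The 4 with the most UMIs were Klf2, a factor of lymphocyte quiescence and trafficking (2835 CPM at 2 hours and 834 at 3 days, log2 ratio 1.77), the AP-1 subunits Junb (1688 and 701, 1.27) and Jund (1393 and 762, 0.87), and the mRNA decay factor Zfp36l1 (1035 and 582, 0.83). Fos, also an AP-1 subunit and named here after its values were seen, was at 801 CPM at 2 hours and 98.1 CPM at 3 days (log2 ratio 3.03). Egr1, an immediate-early zinc-finger factor that is also not among these 4, was at 264 and 42.2 CPM (2.65). Neutrophils of the 2-hour graft held more of some list genes. Dusp1 measured 342 CPM in the 2-hour B cells of cluster 3, and 4136 and 2929.7 CPM in neutrophil clusters 0 and 2. The part of neutrophil RNA in the B cell values of this list was not tested.

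**Figure D3:**
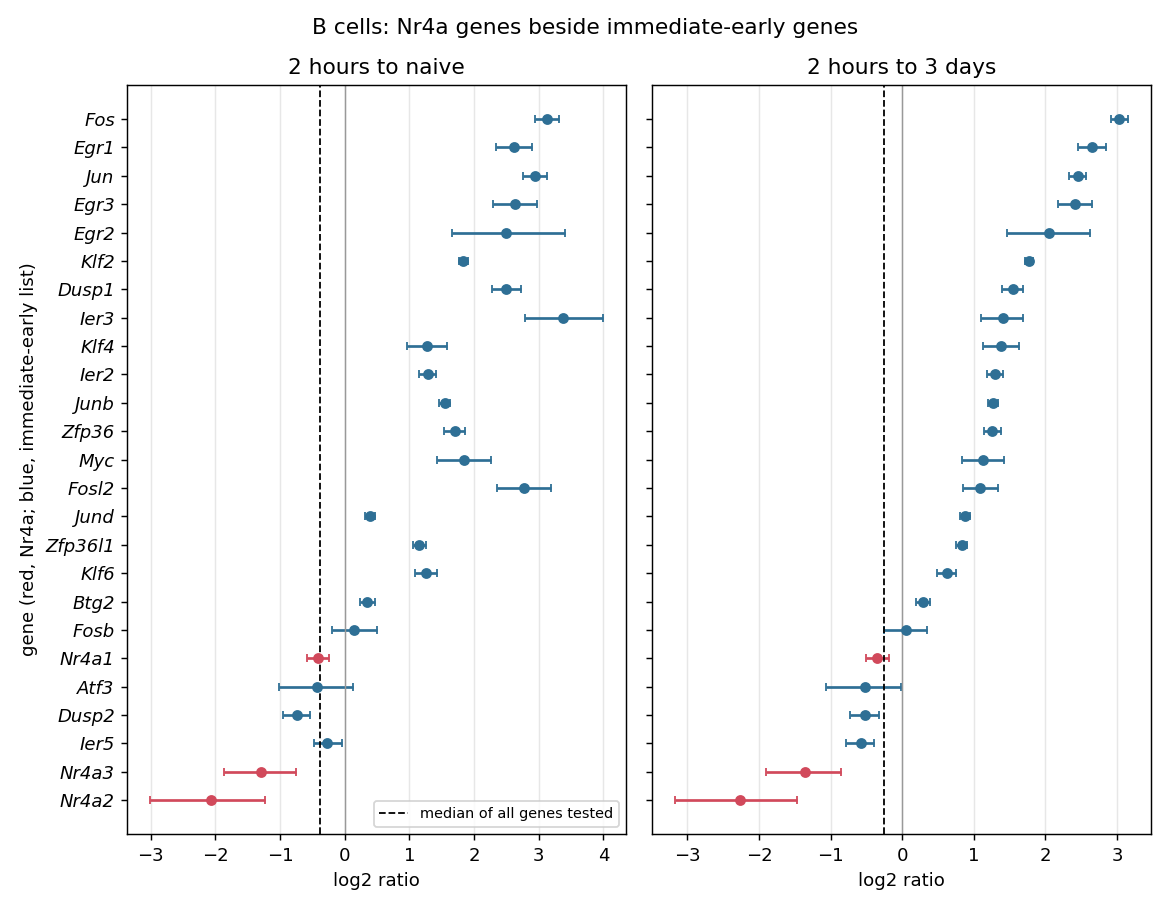
Log2 ratio of summed CPM in B cells, 2 hours to naive (left) and 2 hours to 3 days (right), for the 3 Nr4a genes (red) and 22 immediate-early genes (blue), with 95% counting intervals; the dashed line is the median of all genes tested (-0.39 and -0.26). Nr4a2 and Nr4a3 are the lowest points on both sides, while Fos and Egr1 lie above 2.

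The lists closest to Nr4a control were mixed in B cells. Of the genes that antigen receptor signals induce, 12 of 17 were measured against 3 days, 1 was over 2-fold higher and 1 lower, with a list median of 0.10, and against the naive lung 5 of 13 were higher and 2 lower (0.27). Among all genes, 7.27% were higher and 13.8% lower against 3 days, and 9.42% and 31.4% against naive. Cd83, a surface marker of activated B cells, measured 532 CPM at 2 hours and 295 at 3 days (log2 ratio 0.85), and the costimulator Cd86 76.3 and 203 (-1.41). Of the cAMP and CREB response list 11 of 15 were measured, 2 were higher and 2 lower, and the median was -0.26, while against naive 2 were higher and 5 lower (-0.71). In it Crem, a CREB-family repressor, measured 134 and 304 CPM (-1.18), and Sik1, a kinase that restrains CREB coactivators, 246 and 114 (1.11).

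Partners and regulators of the family were mostly at or below the median of all genes. Of the 14 of 16 measured in B cells, none was over 2-fold higher at 2 hours than at 3 days and 3 were over 2-fold lower, with a median of -0.41. Against the naive lung 7 of 14 were lower and none higher, with a median of -1.02. Among all genes tested in B cells, 7.27% were higher and 13.8% lower against 3 days, and 9.42% and 31.4% against naive. Mef2d, a calcium-responsive activator of the Nr4a1 promoter, measured 90.4 and 214 CPM (log2 ratio -1.24), and its relative Mef2c 1008 CPM at 3 days and 775 at 2 hours (-0.38). Ppp3ca, the catalytic calcineurin subunit, measured 270.5 and 334 CPM (-0.30). Of 24 other nuclear receptor genes 8 were measured against 3 days, none was higher and 1 was lower, and against naive 6 of 10 were lower and none higher. Of 10 heat-shock chaperones 3 were over 2-fold higher and none lower, with a median of 0.50, and against naive 5 were higher and none lower (0.89).

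The share of B cells with a UMI of a member depends on depth, so each cell was thinned to 500 UMIs. Nr4a1 was then found in 14.3% (11.5 to 17.5) of 553 naive cells, 11.5% (9.98 to 13.2) of 1591 2-hour cells and 14.2% (12.7 to 15.9) of 1893 3-day cells, with 61 2-hour cells left out as too shallow. Without thinning the shares were 61.5%, 16.4% and 61.3%. The 2-hour share was the lowest by value, and its interval overlapped those of the other libraries, that of 3 days only between 12.7% and 13.2%. Nr4a2 was found in 0.904% (0.294 to 2.10), 0.629% (0.302 to 1.15) and 1.85% (1.29 to 2.56) of the thinned cells (11.2%, 0.787% and 12.8% unthinned). Nr4a3 was found in 3.07% (1.80 to 4.88), 0.880% (0.482 to 1.47) and 2.43% (1.78 to 3.23), against 17.9%, 1.76% and 20.9% unthinned. For Nr4a3 the 2-hour interval lay below both others, and for Nr4a2 below that of 3 days.

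Neutrophil RNA found in other cells gives an estimate of the transcripts carried over from neutrophils, by free RNA or doublets. It takes all neutrophils of a library together as the source, so it is not an upper limit. At 2 hours, neutrophil cluster 0 held more Nr4a1 than cluster 2 (449 and 259 CPM) and less S100a8 (11486 and 17954 CPM). Carry-over from other lineages was not estimated. S100a8 plus S100a9 in 2-hour B cells reached 4.09% of the neutrophil level of that library, against 0.190% in the naive lung and 0.647% at 3 days. The same 4.09% of the neutrophil levels would bring 15.5 CPM of Nr4a1, 0.857 of Nr4a2 and 5.64 of Nr4a3, beside measured levels of 255, 8.70 and 22.8 CPM. No lineage here is known to lack Nr4a1, so a direct background share could not be given.

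Within B cells, those with an Nr4a1 UMI held less Ighm and more Cd83 than those without one in each library, while other genes varied. After thinning to 500 UMIs, 79 naive, 183 2-hour and 269 3-day B cells held an Nr4a1 UMI and 474, 1408 and 1624 did not. Ighm, the IgM heavy chain, was lower in the cells with a UMI in every library: 1523 against 2321 CPM in the naive lung, 1161 against 1496 at 2 hours and 2169 against 2906 at 3 days. The log2 ratios were -0.61 (-1.02 to -0.22), -0.37 (-0.67 to -0.08) and -0.42 (-0.60 to -0.25), and no interval includes 0. For Ighd, the IgD heavy chain, they were -0.35, -0.06 and -0.10, and each interval includes 0, the lowest bound being -1.07 and the highest 0.34. With cells thinned to 1000 UMIs, these ratios were not computed for the 2-hour library. Ighd was then 0.03 (-0.33 to 0.37) in the naive lung and -0.20 (-0.35 to -0.05) at 3 days. Ighm was -0.48 (-0.69 to -0.28) and -0.42 (-0.52 to -0.32).

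Cd83 was higher in the cells with an Nr4a1 UMI in all 3 libraries, with log2 ratios of 0.77 (0.13 to 1.36), 0.63 (0.25 to 0.99) and 0.63 (0.19 to 1.05). Fos at 2 hours measured 1687 CPM in cells with and 675 CPM in cells without an Nr4a1 UMI (log2 ratio 1.32, 1.05 to 1.59), and Egr1 471 and 227 CPM (1.05, 0.53 to 1.55). At 3 days the ratio of Fos was 0.89 (0.13 to 1.59), and in the naive lung it was 1.09 (-0.55 to 2.50) at 500 UMIs and -0.33 (-1.51 to 0.71) at 1000 UMIs. For Egr1 it was 1.60 (0.16 to 2.91) at 3 days and 1.74 (-0.18 to 3.47) in the naive lung. Cd86 was higher in the cells with an Nr4a1 UMI in the naive lung (0.61, 0.10 to 1.10) and at 3 days (0.77, 0.24 to 1.27), and at 2 hours its ratio was -0.33 (-1.83 to 0.88). For Cd69, an early activation marker, the interval included 0 in every library at 500 UMIs, while at 1000 UMIs the 3-day ratio was 0.50 (0.03 to 0.96) and the naive one -1.24 (-3.21 to 0.28). Among genes with at least 50 thinned UMIs, the highest ratios at 3 days were those of Hspa1b (2.17), Jun (1.64), Gadd45b (1.63), Dnajb1 (1.60) and N4bp1 (1.48). In the naive lung they were Itpkb (1.70), Nfkbia (1.59), Tcf25 (1.38), Lims1 (1.35) and Pim1 (1.15). At 2 hours they were Cdkn2aip (1.58), Fcer1g (1.46), Lilrb4a (1.45), Ap1m1 (1.44) and Alox5ap (1.43), of which Fcer1g, Lilrb4a and Alox5ap are best known from myeloid cells. Called doublets, which were kept, made up 5.33% of the 2-hour B cells of cluster 3. Fos at 2 hours measured 1464 CPM in monocyte cluster 13, and 1543 and 2173 CPM in neutrophil clusters 0 and 2. The part of myeloid RNA in the 2-hour ratios, those of Ighm, Fos and Egr1 among them, was not tested. The 3-day B cells include 41 cells of cluster 3, described below. Before thinning, these held 760 Hspa1a and 336 Fos UMIs, against 80 and 713 in the 1852 cells of cluster 1. Their part in the 3-day ratios was not tested. Cells of 1 library are not replicates, and the ratios above carry no test.

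**Figure D4:**
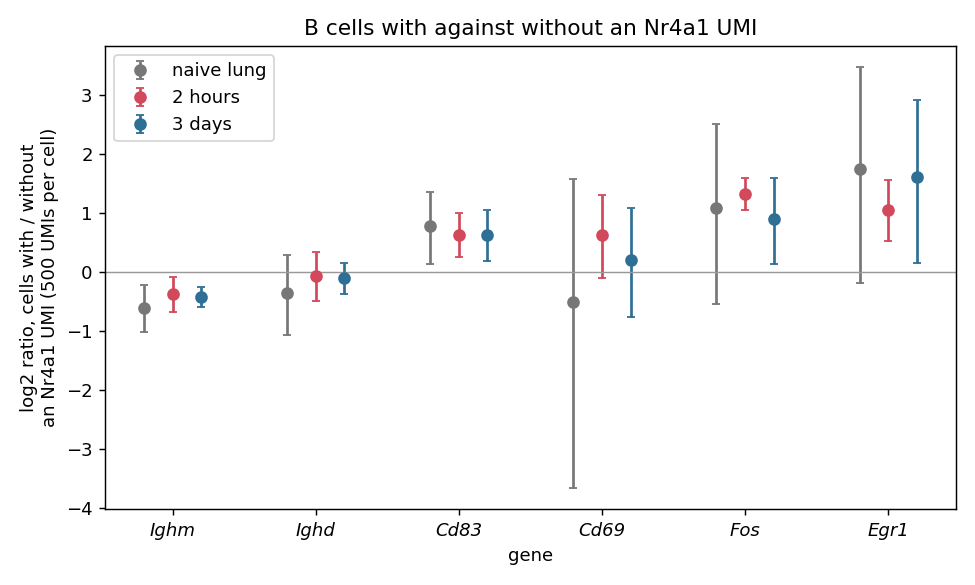
Log2 ratio of summed thinned UMIs in B cells with against without an Nr4a1 UMI, for 6 genes in each library, with 95% counting intervals. The Ighm points lie below 0 in all 3 libraries (-0.61, -0.37 and -0.42) and the Cd83 points above it (0.77, 0.63 and 0.63).

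Il2ra (CD25) and Tnfrsf8 (CD30) were the activation markers of the study's flow cytometry. After thinning to 500 UMIs they held 0 to 5 UMIs per group of B cells, too few for a ratio. The antibody features of the transplant libraries gave no surface readout either: over the thinned B cells IgM held 2 counts at 2 hours and 3 at 3 days, and IgD, CD25, CD30, CD69, CD83 and CD86 held 0.

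A small group of 3-day B cells stood far above the rest for every member. These were the 41 cells that clustered with the 2-hour B cells in cluster 3, at 1306 CPM of Nr4a1 (1157 to 1469), 269 CPM of Nr4a2 (204 to 348) and 184 CPM of Nr4a3 (131 to 251). The other 3-day B cells, in cluster 1, held 304, 37.2 and 55.7 CPM, a difference of 4.29-fold, 7.23-fold and 3.30-fold. The 2-hour cells of the same cluster held 256, 8.72 and 22.8 CPM. Cells of both libraries that shared a cluster, set without the Nr4a genes, thus differed in each member. This grouping depended on the resolution. At resolution 1.2, the cluster with 1431 2-hour B cells held only 11 3-day cells. There, an unnamed cluster led by Hspa1a, Hspa1b and Sftpc held 286 2-hour and 86 3-day cells. Whether it took up the rest of the 41 cells was not tested.

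The same 41 cells held 3583 CPM of the inducible chaperone Hspa1a, against 7.63 in cluster 1 and 147 in the 2-hour cells, and 1584 CPM of Fos, against 68.0 and 800.4. They also held 3446 CPM of S100a8, against 363 in cluster 1, and 4.88% of them were called doublets, against 1.84%. The part of neutrophil RNA in their Nr4a levels was not tested. Without them, the log2 ratios of 2 hours to 3 days in B cells were -0.26, -2.10 and -1.29 for Nr4a1, Nr4a2 and Nr4a3.

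T cells shared the low 2-hour levels of Nr4a2 and Nr4a3 but not the naive level of Nr4a1. Nr4a1 measured 55.9 CPM in the naive lung, 93.9 CPM (83.3 to 105) at 2 hours and 124 CPM (117 to 132) at 3 days, so both grafts lay above the naive lung. Nr4a2 measured 58.8, 19.3 (14.7 to 24.9) and 78.7 CPM (73.1 to 84.6), and Nr4a3 116, 39.3 (32.5 to 46.9) and 125 CPM (117 to 132). For both, the 2-hour interval lay below the other two.

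The log2 ratios of 2 hours to naive in T cells were 0.75 (0.51 to 0.98), -1.61 (-2.03 to -1.21) and -1.57 (-1.86 to -1.28) for Nr4a1, Nr4a2 and Nr4a3. Those of 2 hours to 3 days were -0.40 (-0.60 to -0.22), -2.03 (-2.44 to -1.64) and -1.67 (-1.95 to -1.39). Thus 2 of 3 members were over 2-fold lower at 2 hours in both comparisons, where 28.9% and 11.7% of all genes tested in T cells were, and none was over 2-fold higher (7.77% and 7.01%). When cells were called one by one, Nr4a2 against naive stood at -0.58, no longer past 2-fold, and Nr4a1 at 1.06, past it. With median-of-ratios scaling Nr4a1 was also past it (1.11). Thinned to 500 UMIs the Nr4a1 ratio was 0.32, and scaled to genes with under 10 kb of introns 0.34, both below its counting interval. After thinning, Nr4a1 was found in 3.39% (2.08 to 5.19) of naive and 3.67% (2.96 to 4.49) of 2-hour T cells, with overlapping intervals. For Nr4a1 against 3 days the sign turned when cells were called one by one from their markers instead of by cluster (0.07).

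Nr4a proteins drive tolerance and exhaustion programmes in T cells, so a list of genes tied to them was set beside. Of 14 such genes 10 were measured in T cells against 3 days, 3 were over 2-fold higher at 2 hours and 1 lower, with a median of 0.02 beside -0.20 over all genes. Against the naive lung 2 of 10 were higher and 4 lower, with a median of 0.24 beside -0.37. Among all genes tested in T cells, 7.77% were higher and 28.9% lower against naive, and 7.01% and 11.7% against 3 days. The AP-1-like factor Batf measured 155 CPM at 2 hours and 48.4 at 3 days (log2 ratio 1.68) and the inhibitory receptor Ctla4 128 and 57.6 (1.15). The ubiquitin ligase Cblb measured 147 and 212 (-0.52) and Ikzf2, a factor of regulatory T cells, 76.2 and 138 (-0.86). Of the immediate-early list 9 of 21 were over 2-fold higher and 1 lower in the same comparison, with a median of 0.69.

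Among T cells, those with a Foxp3 UMI, a mark of regulatory T cells, had the highest Nr4a1 in each library by value: 167 CPM (112 to 239.9) in 17 naive cells, 249 CPM (139 to 409.9) in 40 2-hour cells and 168 CPM (127 to 218) in 47 3-day cells. CD8 cells held 32.7, 48.8 and 130.1 CPM and CD4 cells without Foxp3 held 108 CPM at 2 hours and 99.9 at 3 days. The Foxp3 and CD8 intervals were apart in the naive lung and at 2 hours and overlapped at 3 days (CD8, 120.1 to 141). The level of Nr4a1 in CD8 cells was therefore highest at 3 days.

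NK cells were the lymphocytes in which Nr4a2 and Nr4a3 stood least low at 2 hours. Nr4a1 measured 89.1, 194 (169 to 222) and 199 CPM (180.4 to 219) in the naive, 2-hour and 3-day libraries, Nr4a2 268, 225 (198 to 255) and 412 CPM (385 to 440.2), and Nr4a3 162, 121 (101 to 143) and 237 CPM (216 to 258). NK cells had the highest Nr4a2 of all lineages in each library. At 3 days macrophage cluster 22, taken alone, held more, at 497 CPM (471 to 525). The log2 ratio of 2 hours to naive was 1.12 (0.87 to 1.37) for Nr4a1, and 1 of 3 members was over 2-fold higher (9.31% of all genes tested in NK cells) and none lower (27.1%). That call was lost with the scaling to genes with under 10 kb of introns (0.60) and after thinning to 500 UMIs (0.67). Against 3 days the ratios were -0.04 (-0.28 to 0.21), -0.87 (-1.08 to -0.67) and -0.97 (-1.26 to -0.69), none past 2-fold in either direction, where 6.97% of genes were higher and 14.2% lower. Nr4a3 passed 2-fold lower under 5 alternatives (-1.15 to -1.04).

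The naive ratio of Nr4a2 in NK cells (-0.25, -0.46 to -0.05) turned to 0.03 when scaled to the median of ratios. After thinning, Nr4a2 was found in 13.1% (10.3 to 16.4) of naive, 9.47% (7.74 to 11.4) of 2-hour and 17.9% (14.0 to 22.3) of 3-day NK cells, against 65.1%, 16.6% and 69.2% unthinned. In the same thinned cells Nr4a1 was found in 4.78%, 7.59% and 10.1%, and 3-day NK cells had the highest value for both genes.

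Neutrophils held the most cells at 2 hours, 4425, and their Nr4a1 was near the same level in both grafts. Nr4a1 measured 426 CPM in the naive lung, 379 CPM (360.2 to 399) at 2 hours and 366 CPM (353 to 379.8) at 3 days. Nr4a2 measured 107, 20.9 (16.6 to 26.0) and 53.9 CPM (49.0 to 59.2), and Nr4a3 348, 138 (126 to 149.9) and 172 CPM (163 to 181). Nr4a2 and Nr4a3 were thus lowest at 2 hours and highest in the naive lung. For Nr4a2 the latter holds only as long as the 3-day cells of cluster 9, described below, are not counted.

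The log2 ratios of 2 hours to naive in neutrophils were -0.17 (-0.28 to -0.05), -2.36 (-2.74 to -1.99) and -1.34 (-1.50 to -1.18), 2 of 3 being over 2-fold lower, where 25.2% of genes were lower and 10.6% higher. Against 3 days they were 0.05 (-0.04 to 0.14), -1.36 (-1.72 to -1.02) and -0.32 (-0.46 to -0.17), 1 of 3 over 2-fold lower, where 12.8% of genes were lower and 9.39% higher. Nr4a2 was 2.58-fold lower than at 3 days, with 6.57% of genes lower. Of the immediate-early list 6 of 21 were over 2-fold higher at 2 hours than at 3 days and none lower, with Junb at 4593 and 1700.0 CPM and Dusp1, a MAP kinase phosphatase, at 3694 and 2271 CPM.

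Neutrophils of the 2-hour graft fell in clusters 0 and 2. Cluster 0, led by Cxcl3, Cxcl2 and Il1rn, held 449 CPM of Nr4a1 (423 to 476) and cluster 2, led by the granule genes Camp, Ngp and Ltf, 259 CPM (233 to 286), a 1.74-fold difference. For Nr4a3 the levels were 158 and 102 CPM (1.54-fold). For Nr4a2 they were 23.3 and 16.7 CPM, with overlapping intervals.

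At 3 days, a further cluster of 911 cells, numbered 9, stood closest to neutrophils but reached no name. It was led by Csf1, Tnf, Ccl3, Il1f9, Ccrl2 and Siglecf, and held 911 CPM of Nr4a1 (879 to 943), 244 of Nr4a2 (228 to 261) and 415 of Nr4a3 (394 to 437). The 3-day neutrophils of cluster 4 held 364, 51.6 and 172 CPM, so cluster 9 was 2.50-fold, 4.73-fold and 2.41-fold higher. Its doublet share was 0.329%, against 4.09% in cluster 4. With cluster 9 counted as neutrophils, the log2 ratios of 2 hours to 3 days were -0.48, -2.41 and -0.83, so the values of all 3 members depend on whether these cells are included. The 3-day levels were then 529.8 CPM of Nr4a1, 111 CPM of Nr4a2 (105 to 117) and 245 CPM of Nr4a3, and that of Nr4a2 was no longer below the naive level.

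Monocytes had the highest Nr4a1 value of all lineages in the naive lung and at 2 hours. They measured 604 CPM in the naive lung, 718 CPM (661 to 778) at 2 hours and 440.3 CPM (430.5 to 450.4) at 3 days, where endothelial cells and macrophages (501 CPM each) were higher. Nr4a2 measured 113, 71.3 (54.3 to 92.0) and 148 CPM (142 to 153), and Nr4a3 60.3, 39.9 (27.5 to 56.0) and 46.5 CPM (43.3 to 49.8). Nr4a1 was highest at 2 hours and Nr4a2 lowest.

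The log2 ratios of 2 hours to naive in monocytes were 0.25 (0.10 to 0.39), -0.66 (-1.11 to -0.24) and -0.60 (-1.21 to -0.02), none over 2-fold lower (27.7% of genes were). Against 3 days they were 0.71 (0.58 to 0.83), -1.05 (-1.45 to -0.68) and -0.22 (-0.77 to 0.28), 1 of 3 over 2-fold lower (13.6% of genes were). The kinds of monocyte differed between the libraries. The 2-hour monocytes were in cluster 13, and those at 3 days were 766 classical cells in cluster 10, 422 nonclassical in cluster 17 and 78 in cluster 13. Of the 142 naive monocytes, 136 were in cluster 23, named nonclassical from its markers. Vcan and F13a1, from the classical marker list, were among its leading genes. Cluster 13 was named nonclassical from its markers, but it also held the classical marker Ly6c2, at 338 CPM in its 2-hour cells and 299.9 CPM in its 3-day cells. With clusters 13 and 17 alone, the ratios of 2 hours to 3 days were -0.82 for Nr4a1, -0.76 for Nr4a2 and -0.43 for Nr4a3. The call of Nr4a2 against 3 days was lost under this and 5 further alternatives, 6 in all (-0.98 to -0.51).

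Nr4a1 separated the kinds of monocyte at 3 days. The nonclassical cluster 17 held 1219 CPM (1182 to 1256) and the classical cluster 10 held 181 CPM (174 to 189), a 6.73-fold difference (log2 2.75, 2.68 to 2.82). Ace, a marker of nonclassical monocytes, was at 884 and 62.1 CPM and Ly6c2, a marker of classical ones, at 6.96 and 688 CPM in the same clusters. Nr4a2 did not share this difference, with 117 and 156 CPM, and for Nr4a3 (47.0 and 44.2 CPM) the interval of the ratio (-0.17 to 0.34) includes 0.

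Within cluster 13, the 492 cells at 2 hours held less of every member than the 78 at 3 days: 720.3 and 1538 CPM of Nr4a1, 71.5 and 144 of Nr4a2, and 40.0 and 90.3 of Nr4a3. The log2 ratios were -1.09 (-1.24 to -0.95), -1.01 (-1.50 to -0.52) and -1.17 (-1.83 to -0.54). As in B cells, the 3-day cells here carried much Hspa1a, 2962 CPM against 350.4 at 2 hours and 16.8 in cluster 17. Fos was at 2085, 1464 and 346 CPM. At resolution 1.2, the nonclassical cluster with 433 2-hour cells held only 22 3-day cells. The unnamed cluster led by Hspa1a at that resolution held 86 3-day cells.

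Macrophages of the naive lung and of the graft were different cells. The naive macrophages were alveolar (cluster 24, with 102 of the 108 cells), and those of the 3-day graft carried C1q macrophage markers, 636 in cluster 11, led by Saa3 and Arg1, and 164 in cluster 22, led by the C1q genes. At 2 hours only 4 macrophages were found. Nr4a1 measured 136 CPM (120.2 to 153) in the naive lung and 501 CPM (486 to 515) at 3 days, Nr4a2 9.80 and 363 CPM (351 to 375), and Nr4a3 52.4 and 178 CPM (169.7 to 187). The folds were 3.69 for Nr4a1, 37.0 for Nr4a2 (log2 5.21, 4.58 to 5.92) and 3.40 for Nr4a3.

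The kinds of 3-day macrophage also differed among the members. Cluster 11 held 582 CPM of Nr4a1 (564 to 601) and cluster 22 292 CPM (272 to 313), while for Nr4a2 cluster 22 was higher, at 497 against 310.2 CPM (1.60-fold), and for Nr4a3 too, at 296 against 132 CPM (2.24-fold). Classical monocytes of cluster 10, from the same library, were at 181, 156 and 44.2 CPM, below both macrophage clusters for each member.

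**Figure D5:**
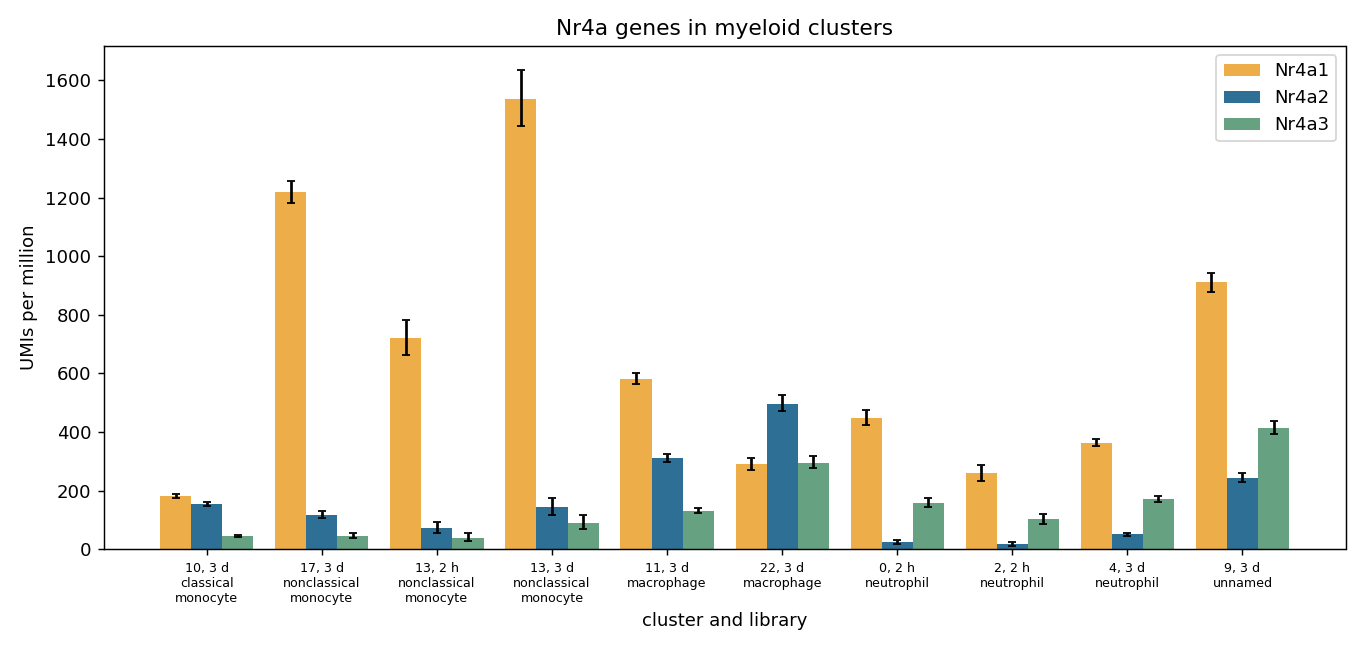
Levels of the 3 Nr4a genes (CPM, linear axis from 0) in 10 myeloid clusters of the grafts, with 95% Poisson intervals. Nr4a1 is tallest in the monocyte clusters 17 and 13 (1219 in cluster 17 and 1538 in the 3-day cells of cluster 13, which also held Ly6c2, against 181 in the classical cluster 10), and Nr4a2 in macrophage cluster 22 (497).

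Lineages with few cells gave wider intervals. The leading genes of the dendritic cluster included plasmacytoid (Siglech, Ccr9) and conventional (Cd209a, Clec10a) markers. There Nr4a3 measured 161 CPM (121 to 208), 169 CPM (111 to 245) and 531 CPM (499 to 564) in the naive, 2-hour and 3-day libraries, from 21, 63 and 114 cells, and the 3-day level was the highest of all lineages. Nr4a2 in the same cells measured 103 CPM (72.3 to 143) in the naive lung and 226 CPM (206 to 248) at 3 days, and at 2 hours its interval was 21.6 to 98.5 CPM, from 8 UMIs. In basophils or mast cells Nr4a1 measured 119.9 CPM (72.2 to 187) in 20 naive cells, 622 CPM (469 to 810.1) in 67 cells at 2 hours and 275 CPM (237 to 318) in 111 cells at 3 days. Nr4a2 had 0 UMIs at 2 hours, with an interval that reaches up to 41.7 CPM. Endothelial cells, which the CD45 sort should not keep, measured 154, 331 and 501 CPM of Nr4a1, the 3-day interval (454 to 550.4) lying above the naive one (112 to 206). The 2-hour level rests on 23 UMIs. The leading gene of their cluster was Sftpc, from the epithelial marker list. Their median was 1327.5, 877 and 907.5 UMIs per cell in the naive, 2-hour and 3-day libraries.

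Between libraries, Nr4a2 and Nr4a3 were both lowest in the earlier graft by value in B, T and NK cells, neutrophils and monocytes. In dendritic, endothelial and basophil or mast cells, Nr4a3 was instead lowest in the naive lung by value. Its log2 ratio of 2 hours to naive was 0.07 (-0.65 to 0.76) in dendritic and 0.04 (-3.23 to 2.37) in endothelial cells. Those intervals do not order the naive and 2-hour libraries. In basophils or mast cells the ratio was 0.95 (0.13 to 1.78). Nr4a2 was lowest at 2 hours by value in dendritic, endothelial and basophil or mast cells too, from 8, 4 and 0 UMIs there. With lineages and libraries pooled, which cannot tell these apart, the Nr4a genes showed little correlation. Over 24 sums of at least 50 cells, Pearson's r of log2(CPM + 10) was -0.07 between Nr4a1 and Nr4a2, 0.03 between Nr4a1 and Nr4a3 and 0.24 between Nr4a2 and Nr4a3. Among 4997 genes, those most like Nr4a1 included Atp6v0b (0.78), Dusp6 (0.77), Ceacam1 (0.76) and Ninj1 (0.75). For Nr4a2 they were Tab2 (0.78), Uba1 (0.78), Rnaseh2c (0.76), Adora2a (0.74) and B2m (0.74), and for Nr4a3 Pfkp (0.74), Tes (0.70), Fam110a (0.70), Il18rap (0.70) and Ankrd13a (0.70). Sums of a library share its depth and software, and these values describe the 3 libraries.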

How the data were processed

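Droplet scRNA-Seq libraries of 3 groups, 1 library each, were analysed. The deposited matrices hold raw UMI counts per gene and cell, made by the authors with Cell Ranger (7.1.0 for the naive library, 6.0.0 for both transplant libraries, per the file headers) on mm10, as the submitters' notes say. Those notes also name Seurat 4. The labels name a 5′ and a 3′ kit. The study's methods name only a 3′ kit. The sources used here do not give which library the 5′ kit of the labels belongs to, or the intron setting. Gene counts summed to 28538529 (naive), 10749100 (2 hours) and 70750470 (3 days). Both transplant matrices also hold 277 antibody features.

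The study's cell filter was applied: more than 200 but fewer than 6000 genes, less than 10% of UMIs from mitochondrial genes, and fewer than 25000 UMIs. They were clustered with Seurat 5.3.0 and sctransform 0.4.2 on 2997 of 3000 variable features, the 3 Nr4a genes left out (30 components, resolution 0.8), and named from fixed markers. Scrublet (scanpy 1.11.5) called 40, 403 and 277 doublets, which were kept. UMIs were summed per lineage as CPM, with exact Poisson, conditional ratio and Clopper-Pearson intervals at 95%. Genes had to reach 10 CPM in 1 of the libraries compared and 20 UMIs over both, 0.5 UMI was added, and a fold of 2 was the call. No test between groups was possible. The interval code was tested on simulated data.

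The Nr4a genes and the lists were chosen with earlier results of these data known. Named genes were the members, up to 4 genes with the most UMIs of each list, the 5 genes most like each member (1 of them is not reported here), and the 5 highest ratios in B cells with an Nr4a1 UMI. Other genes, such as Fos, Egr1 and cell type markers, were also named, and not all of them are marked where they stand. Proteins were not analysed here.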

Additional observations from a re-analysis of the deposited data

Results flagged for a closer look

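Nr4a1 was flagged because its ratio between libraries pointed in opposite directions in different lineages, with counting intervals that did not include 0. The log2 ratio of 2 hours to naive was 0.75 in T cells, 1.12 in NK cells and 0.25 in monocytes, and -0.41 in B cells and -0.17 in neutrophils. That of 2 hours to 3 days was 0.71 in monocytes, and -0.35 in B cells and -0.40 in T cells. The difference between lineages was not tested, since each group has 1 library and all lineages of a library share it. For monocytes, different kinds of cell made up the lineage at 2 hours and 3 days, and for every ratio to naive the counting software differed.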

How the results depend on the processing

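No paired analysis was possible because each group has 1 library, and for the same reason no replicate could be left out. Over 327 recomputed log2 ratios of the 3 genes in 5 lineages, 242 stayed within the counting interval, 76 moved outside it and 9 changed sign where the interval excluded 0. In B cells Nr4a1 at 2 hours to naive moved to -0.59 (cells called one by one), -0.07 (median-of-ratios scaling), -1.0 (scaled to genes with under 10 kb of introns) and -0.58 (resolution 1.2), and to 3 days to -0.52 (cells called one by one, with and without the cell filter) and -0.08 (median-of-ratios scaling). Nr4a2 to naive moved to -0.52 when thinned to 500 UMIs, where few UMIs are left, and Nr4a3 to naive to -1.87 with the intron scaling. Nr4a2 and Nr4a3 in B cells stayed below 0 under all alternatives run, from -2.44 to -1.64 and from -1.64 to -1.09 against 3 days. Sign changes were 0.07 and 0.05 (Nr4a1, T cells to 3 days, cells called one by one, with and without the filter), 0.03 (Nr4a2, NK cells to naive, median-of-ratios), -0.06, -0.05 and -0.19 (Nr4a1, monocytes to naive, one by one with and without the filter, and intron scaling), 0.16 in both one-by-one settings (Nr4a3, monocytes to naive) and -0.82 (Nr4a1, monocytes to 3 days, clusters 13 and 17 alone, chosen after seeing the data). The sign also turned in 11 ratios whose interval included 0, of which 6 were Nr4a1 in neutrophils to 3 days (-0.49 to -0.05). The cause was not tested beyond what a setting's own construction shows. At resolution 0.4 the 2-hour monocytes joined a dendritic cluster and gave no value. The shallow 2-hour library limits Nr4a2 in B cells, which rests on 13 UMIs.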
